A study of Mus musculus with 6 samples.

Results

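The genes described here encode the main peroxide, superoxide, thiol and metal-binding defences of muscle cells: superoxide dismutases, catalase, glutathione peroxidases, peroxiredoxins, thioredoxins, glutaredoxins, the enzymes of glutathione synthesis, methionine sulfoxide reductases, the NRF2-KEAP1 regulators with some of their targets, and the metallothioneins. The set was fixed by gene name, 41 genes in all. A gene was represented by the probe set that carried its symbol alone, and by the brightest such probe set where there were several. Of the 41 genes, 39 had such a probe set, out of 19938 genes on the array. Prdx5 and Prdx6 had none and were not analysed here. Levels were measured in whole tibialis anterior, a mixed limb muscle, on 1 Affymetrix array per sample: 3 samples from mice labelled MLC-SOCS-3 on C57Bl6J and 3 from control C57Bl6J mice. All mice were 11 weeks old and had been starved for 6 h. SOCS-3 is an inhibitor of cytokine signalling through JAK and STAT proteins. The labels name the MLC-SOCS-3 construct without giving its promoter, its integration or the number of lines, and they do not say whether the replicates are separate animals, so p-values rest on sample-to-sample spread that could be technical.

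Superoxide made by mitochondria and oxidases is converted to hydrogen peroxide by superoxide dismutases, and the peroxide is removed by catalase, by glutathione peroxidases at the cost of glutathione, and by peroxiredoxins at the cost of thioredoxin. Several of these enzymes are selenoproteins, which carry selenocysteine in the active site. Among the 41 genes these are Gpx1, Gpx3, Gpx4, Txnrd1, Txnrd2 and Msrb1. The transcription factor NRF2, encoded by Nfe2l2 and held in check by KEAP1, drives many of the genes through antioxidant response elements, and the metallothionein genes are driven by zinc through metal response elements, by glucocorticoids and by STAT3.

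Values are log2 RMA intensities as deposited, and differences are MLC-SOCS-3 minus control. The arrays ranged in median from 5.98 to 6.04. Levels are set against the median probe set, at 5.99, and not between genes, whose probes differ. Socs3 itself read 7.07, 7.12 and 7.25 on the MLC-SOCS-3 arrays, against 7.37, 7.41 and 7.43 on the control arrays, although the study's design text describes strong transgene expression in this muscle. Whether the Socs3 probes cover the transgene is not given in the sources used here. Directions below therefore hold for the arrays as labelled. In bulk tissue, fewer cells of a type and less RNA per cell cannot be told apart.

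The promoters of 4 genes are shown, and these genes were picked by their values on the arrays. Whether the promoter sequences bear on those values was not tested. Mt1 and Mt2 were among the genes that varied most between arrays of the same group, Srxn1 varied widely among the MLC-SOCS-3 arrays, and Msrb1 had the smallest p of the set. Each sequence is the 250 bases before the RefSeq gene start, 5′ to 3′ on the gene's strand, from the GRCm38.p6 build. Capitals mark matches, on either strand, to the metal response element core (TGCACNC or TGCGCNC), the antioxidant response element core (TGACNNNGC), the STAT core (TTCNNNGAA) and the AP-1 site (TGANTCA).
Mt1, chr8:94178839-94179088, plus strand: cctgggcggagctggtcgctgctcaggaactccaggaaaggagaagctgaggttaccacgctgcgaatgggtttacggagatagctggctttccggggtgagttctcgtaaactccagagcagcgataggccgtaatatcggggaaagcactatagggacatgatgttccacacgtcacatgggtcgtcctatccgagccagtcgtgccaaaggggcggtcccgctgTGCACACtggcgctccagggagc
Mt2, chr8:94172368-94172617, plus strand: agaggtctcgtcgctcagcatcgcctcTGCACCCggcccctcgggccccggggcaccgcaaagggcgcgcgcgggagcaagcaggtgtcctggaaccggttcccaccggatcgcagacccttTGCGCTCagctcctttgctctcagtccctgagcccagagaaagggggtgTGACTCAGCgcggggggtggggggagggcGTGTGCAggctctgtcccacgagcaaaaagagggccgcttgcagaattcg
Srxn1, chr2:152105274-152105523, plus strand: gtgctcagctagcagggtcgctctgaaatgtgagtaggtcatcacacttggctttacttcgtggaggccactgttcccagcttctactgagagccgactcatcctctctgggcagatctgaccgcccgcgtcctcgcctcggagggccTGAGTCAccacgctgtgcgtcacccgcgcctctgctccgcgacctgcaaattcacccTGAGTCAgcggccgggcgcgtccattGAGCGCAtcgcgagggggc
Msrb1, chr17:24736343-24736592, plus strand: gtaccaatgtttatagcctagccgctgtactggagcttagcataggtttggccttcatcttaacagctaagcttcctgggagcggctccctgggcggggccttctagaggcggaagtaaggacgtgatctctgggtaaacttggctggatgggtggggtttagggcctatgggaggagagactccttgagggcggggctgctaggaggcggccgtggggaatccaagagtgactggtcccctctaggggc

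In these windows Mt2 held 3 matches to the metal response element core, and Mt1 held 1, which lay 23 to 17 bases before the gene start. Mt2 also held TGACTCAGC, a match to the antioxidant response element core whose first bases are also a match to the AP-1 site. Srxn1 held TGAGTCA at 2 places, matches to the AP-1 site, and 1 match to the metal response element core. No letters of the Msrb1 window matched any of the 4 motifs. Windows were given for 33 of the 39 measured genes. A match to the metal response element core was found for 10 of these genes, to the antioxidant response element core for 6, to the AP-1 site for 4 and to the STAT core for 3. Among all 32851 windows of the same length, 21.4% held the metal response element core, 10.2% the antioxidant response element core, 6.75% the AP-1 site and 7.02% the STAT core. Some genes have several windows, so the gene counts and the window shares are not on the same footing. A match is a description of letters and not a site. The windows end at the RefSeq gene start, so matches past that start or further upstream were not counted. The numbers of matches for Mt1 and Mt2 therefore hold for these windows only.

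No gene of the set passed the test between the groups (limma over all 35557 probe sets, adjusted p between 0.728 and 0.997). Across the array 0 probe sets passed in limma, 0% of those tested, and 2105 were at an unadjusted p under 0.05. At an unadjusted p under 0.05 there were 4 of the 39 genes, 10.3%, against 4.86% of all genes. These 4 were Msrb1, Gpx3, Gpx7 and Gpx4, and all were lower on the MLC-SOCS-3 arrays, where 3.5% of all genes were lower at that p and 1.36% higher. The groups did not overlap for 6 of the 39 genes, 15.4%, against 12.3% of all genes. Of these 6, Gpx3, Gpx4, Gpx7, Msrb1 and Msrb3 were lower and Prdx3 was higher, with backgrounds of 7.76% lower and 4.52% higher. With each array centred on its median, 11 of the 39 genes did not overlap, 6 higher and 5 lower, against 12.3% of all genes (6.33% higher and 5.99% lower), so the count and the split depend on the scaling. Over the set 23 differences were positive and 16 negative, with a median of 0.02, beside a median of -0.02 over all genes. The positive share was 59.0%, against 43.8% of all genes, which is the background for the sign counts below. Many of these signs rested on 1 array: for 18 of the 39 genes the sign turned when some single array was left out, and each of the 18 had a difference within 0.2425 of 0 over all arrays. For 34 of the 39 genes the 95% interval of the difference lay inside a 1.5-fold change in either direction. The other 5 were Gpx3, Hmox1, Srxn1, Mt1 and Mt2. The share of all genes with such intervals is not given here, so the count is not particular to the set.

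**Figure D1:**
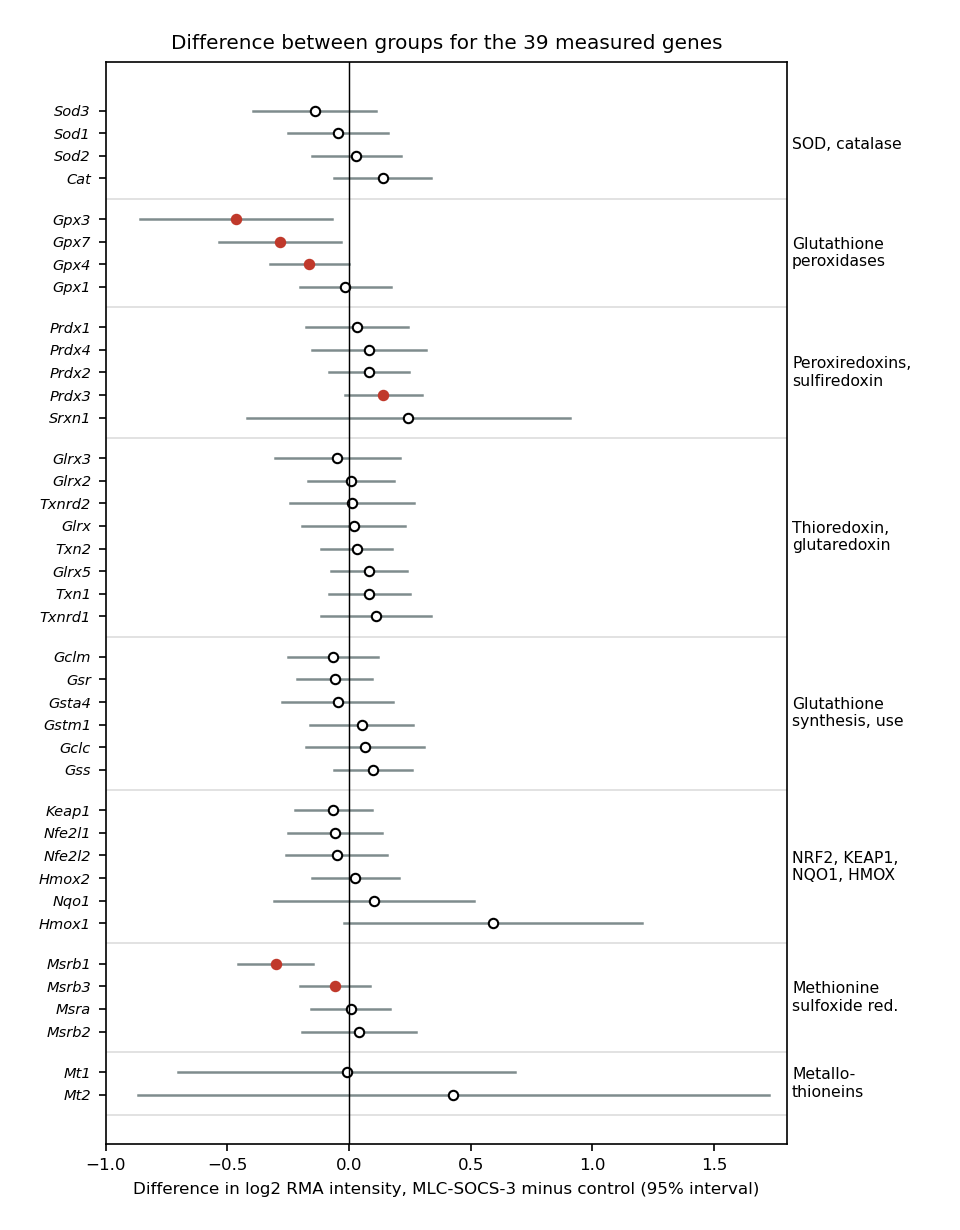
Difference in log2 RMA intensity, MLC-SOCS-3 minus control, for the 39 measured genes in their role groups, with the limma 95% interval (n = 3 arrays per group). Filled red points are the 6 genes whose groups do not overlap. All 4 glutathione peroxidases lie below 0 (Gpx1 at 0.0043 with centred arrays), and the widest intervals are those of Mt2, Mt1, Srxn1 and Hmox1.

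The glutathione peroxidases reduce hydrogen peroxide and lipid peroxides, and all 4 had negative differences, with a median of -0.22, although Gpx1 turned to 0.0043 when the arrays were centred on their medians. Gpx3, the secreted plasma form, measured 9.33, 9.24 and 9.25 on the MLC-SOCS-3 arrays and 9.41, 10.05 and 9.75 on the control arrays. The MLC-SOCS-3 arrays lay close together, while the control arrays spread over 0.64 and control replicate 1 lay just above the MLC-SOCS-3 arrays. The difference was -0.47 ± 0.16 (SE, n = 3 each), a 1.38-fold lower intensity (limma unadjusted p = 0.0275, adjusted p = 0.82). Without control replicate 2, the highest array, it was -0.31.

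Gpx4 is the selenoprotein that reduces phospholipid peroxides in membranes. It measured 11.96, 11.84 and 11.91 on the MLC-SOCS-3 arrays and 12.11, 12.04 and 12.05 on the control arrays. The groups did not overlap, and the difference was small, -0.16 ± 0.07 (SE; limma unadjusted p = 0.0482, adjusted p = 0.83). Its other, dimmer probe set gave 11.31, 11.23 and 11.27 on the MLC-SOCS-3 arrays against 11.47, 11.41 and 11.41 on the control arrays, a difference of -0.16 ± 0.06 (SE). The annotation pairs both probe sets with the same RefSeq transcripts, so they are not independent measurements. The 8 measured genes next to Gpx4 on chromosome 10, 4 on either side, had negative differences, with a median of -0.09. Their groups all overlapped, and 0 of them were at an unadjusted p under 0.05 in limma. Over all 19938 genes, 11210 differences were negative. Genes in the like windows around Gpx3, Hmox1, Mt1 and Gclc had differences of both signs.

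Gpx7 is a peroxidase of the endoplasmic reticulum that uses cysteine in place of selenocysteine. It measured 6.25, 6.42 and 6.08 on the MLC-SOCS-3 arrays and 6.61, 6.52 and 6.48 on the control arrays, not far above the median probe set. The groups did not overlap, and MLC-SOCS-3 replicate 2 lay just below the lowest control array. The difference was -0.28 ± 0.10 (SE; limma unadjusted p = 0.0325, adjusted p = 0.825). Gpx1, the main cytosolic form, measured 9.05, 9.17 and 9.27 on the MLC-SOCS-3 arrays and 9.17, 9.17 and 9.20 on the control arrays. The groups overlapped fully, with a difference of -0.02 ± 0.08 (SE).

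Methionine sulfoxide reductases return oxidised methionine in proteins to methionine. Msrb1 (probe set 10442596, chromosome 17), the selenoprotein of the family, had the smallest p of the set. It measured 11.61, 11.68 and 11.71 on the MLC-SOCS-3 arrays, against 11.998, 11.950 and 11.959 on the control arrays. The gap between the groups was wider than the spread within either of them. The difference was -0.30 ± 0.06 (SE, 95% interval -0.45 to -0.15), a 1.23-fold lower intensity (limma unadjusted p = 0.00305, adjusted p = 0.73). An exact permutation test of 3 arrays against 3 gave p = 0.1, the smallest it allows. Leaving out any 1 array gave differences between -0.32 and -0.27. Msrb1 was the only gene of the set called in any of the 16 alternative fits: limma with robust moderation and a variance trend, on the 23410 probe sets listed in the platform annotation, gave adjusted p = 0.0433, in a setting that called 11 probe sets (0.047%). In the other alternatives its adjusted p was above the threshold.

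The measured genes next to Msrb1 had differences of either sign. Of 8 such genes, 4 on either side, 4 had positive and 4 negative differences, from -0.23 to 0.18. The other reductases differed less. Msrb3, the form of the endoplasmic reticulum and mitochondria, measured 10.90, 10.87 and 10.94 on the MLC-SOCS-3 arrays and 10.97, 10.96 and 10.96 on the control arrays. These groups did not overlap, but the difference was only -0.06 ± 0.06 (SE), and they did overlap after the arrays were centred. Msrb2, a mitochondrial form, had a difference of 0.04 ± 0.10 (SE), and Msra, which acts on the other stereoisomer of methionine sulfoxide, one of 0.01 ± 0.07 (SE).

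The count of genes at an unadjusted p under 0.05 changed when single arrays were left out. It was 4 without MLC-SOCS-3 replicate 1 (Gpx4, Hmox1, Msrb1 and Srxn1), 2 without MLC-SOCS-3 replicate 2 (Gpx7 and Msrb1) or control replicate 1 (Gpx3 and Msrb1), and 1 without MLC-SOCS-3 replicate 3, control replicate 2 or control replicate 3. That 1 gene was Msrb1 each time. The shares of all genes at that p in these fits are not given here. Fewer arrays leave less power for every gene, so these counts do not show a dependence particular to the set.

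**Figure D2:**
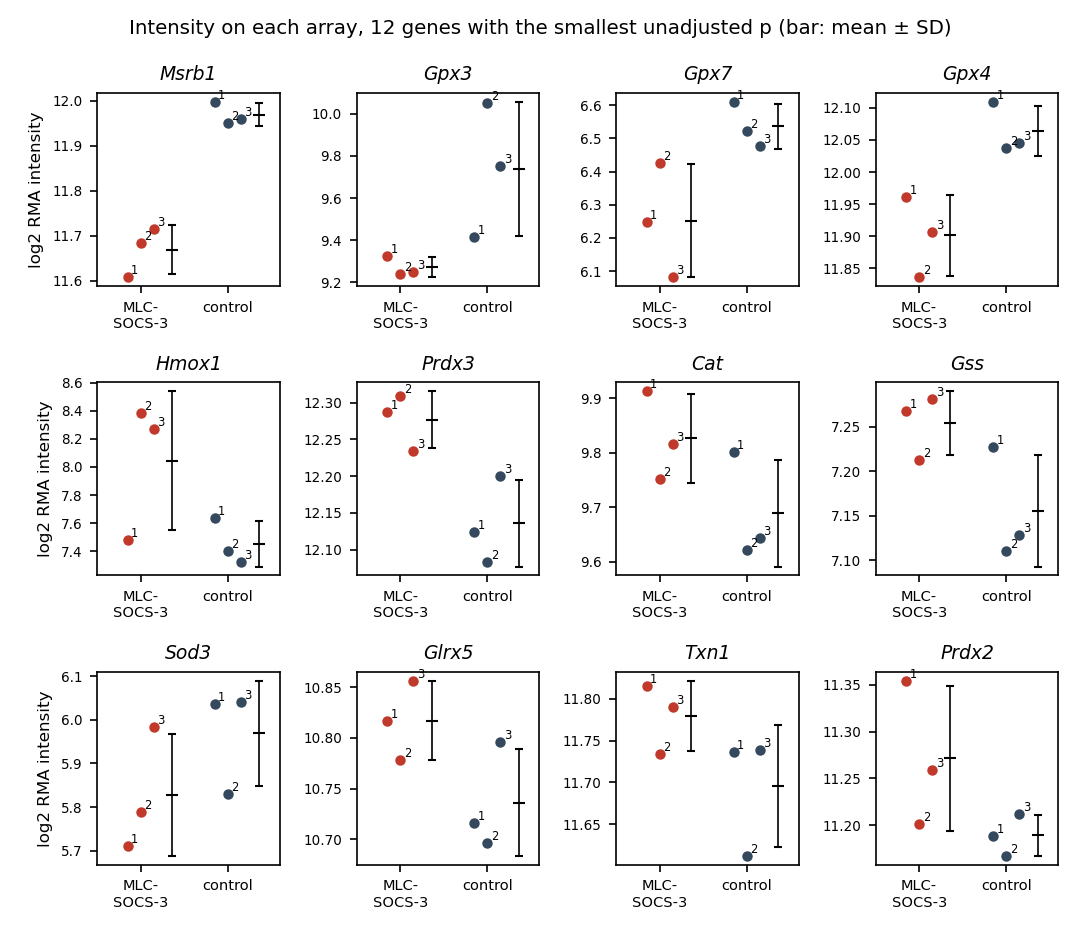
Log2 RMA intensity on each array for the 12 genes with the smallest unadjusted p. Points are arrays, numbered by replicate, with MLC-SOCS-3 in red and control in dark blue, the bar gives mean ± SD (n = 3), and each panel has its own axis. Msrb1 shows a gap between the groups, Gpx3 a wide control group, and Hmox1 MLC-SOCS-3 replicate 1 at the level of the controls.

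The remaining selenoproteins of the set are the thioredoxin reductases, which recharge thioredoxin with NADPH. Txnrd1, the cytosolic form, measured 9.96, 9.86 and 10.11 on the MLC-SOCS-3 arrays and 9.83, 9.97 and 9.80 on the control arrays. The groups overlapped, and the difference was 0.11 ± 0.09 (SE; limma adjusted p = 0.88). Txnrd2, the mitochondrial form, measured 8.48, 8.47 and 8.49 on the MLC-SOCS-3 arrays and 8.56, 8.25 and 8.59 on the control arrays. The control arrays lay on either side of the MLC-SOCS-3 arrays, with a difference of 0.01 ± 0.10 (SE). The 6 selenoproteins of the set thus had 4 negative and 2 positive differences, with a median of -0.09, and the 33 other genes had 12 negative and 21 positive ones, with a median of 0.03.

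Related selenium genes were looked at from lists outside the set. Of 18 other selenoprotein genes, 7 had positive and 11 negative differences, with a median of -0.01, and none passed limma's test, 0 also at an unadjusted p under 0.05. Selenoi, an enzyme of phospholipid synthesis, was at 0.19 ± 0.08 (SE), Selenoh, a nuclear selenoprotein, at -0.21 ± 0.10 and Selenov, which lay below the median probe set, at -0.28 ± 0.15. Sephs2, the selenophosphate synthetase that is itself a selenoprotein, was at 0.07 ± 0.06. The 10 genes of selenocysteine insertion had 5 positive and 5 negative differences, with none at an unadjusted p under 0.05. Among them Eefsec, the elongation factor that brings selenocysteine to the ribosome, was at -0.19 ± 0.09 (SE) and Pstk, a kinase of selenocysteine tRNA, at 0.10 ± 0.07. Trnau1ap was at -0.08 ± 0.06 and Elavl1, which binds RNA, at -0.08 ± 0.07.

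Peroxiredoxins reduce peroxides through a reactive cysteine. All 4 measured members and Srxn1, which repairs overoxidised peroxiredoxins, had positive differences, with a median of 0.08, and none passed the test. The dimmer probe set of Prdx2 was at -0.01, and the signs of Prdx1 and Srxn1 turned when single arrays were left out. Prdx3, the mitochondrial peroxiredoxin, measured 12.29, 12.31 and 12.23 on the MLC-SOCS-3 arrays and 12.12, 12.08 and 12.20 on the control arrays. The groups did not overlap, although control replicate 3 lay just under MLC-SOCS-3 replicate 3, and the difference was 0.14 ± 0.07 (SE; limma unadjusted p = 0.0734, adjusted p = 0.83). Prdx2, an abundant cytosolic form, measured 11.35, 11.20 and 11.26 on the MLC-SOCS-3 arrays and 11.19, 11.17 and 11.21 on the control arrays, a difference of 0.08 ± 0.07 (SE). The other, dimmer Prdx2 probe set gave -0.01 ± 0.07, so the direction for Prdx2 depended on the probe set. Prdx1 was at 0.03 ± 0.09 (SE) on its brighter probe set and 0.09 ± 0.07 on the other one, and Prdx4, of the endoplasmic reticulum, at 0.08 ± 0.10.

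Superoxide dismutases and catalase had differences between -0.14 and 0.14. Catalase, Cat, the peroxisomal enzyme that splits hydrogen peroxide, measured 9.91, 9.75 and 9.82 on the MLC-SOCS-3 arrays and 9.80, 9.62 and 9.64 on the control arrays. Control replicate 1 lay above MLC-SOCS-3 replicate 2, and the difference was 0.14 ± 0.08 (SE; limma adjusted p = 0.86). Sod3, the extracellular dismutase, whose mean over the 6 arrays was just below the median probe set, measured 5.71, 5.79 and 5.98 on the MLC-SOCS-3 arrays and 6.04, 5.83 and 6.04 on the control arrays, a difference of -0.14 ± 0.10 (SE). Sod1, the cytosolic copper-zinc enzyme, was at -0.04 ± 0.08 (SE) and Sod2, the mitochondrial manganese enzyme, at 0.03 ± 0.07.

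Of the 8 genes of the thioredoxin and glutaredoxin systems, 7 had positive differences, with a range of -0.05 to 0.11 over all arrays, and the groups overlapped for all 8, though not for Txn1 and Glrx5 once the arrays were centred. Txn1, cytosolic thioredoxin, measured 11.82, 11.73 and 11.79 on the MLC-SOCS-3 arrays and 11.74, 11.61 and 11.74 on the control arrays. Its difference of 0.08 ± 0.07 (SE) was of the same order as the spread of the control arrays. Glrx5, a mitochondrial glutaredoxin of iron-sulphur cluster assembly, measured 10.82, 10.78 and 10.86 on the MLC-SOCS-3 arrays and 10.72, 10.70 and 10.80 on the control arrays, a difference of 0.08 ± 0.06 (SE).

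Glutathione genes differed little. Gss, glutathione synthetase, measured 7.27, 7.21 and 7.28 on the MLC-SOCS-3 arrays and 7.23, 7.11 and 7.13 on the control arrays, a difference of 0.10 ± 0.07 (SE; limma adjusted p = 0.86). The subunits of the rate-limiting glutamate-cysteine ligase were at 0.07 ± 0.10 (Gclc, SE) and -0.06 ± 0.08 (Gclm), and glutathione reductase, Gsr, at -0.06 ± 0.06. The transferases Gsta4 and Gstm1, which join glutathione to lipid aldehydes and other electrophiles, were at -0.05 ± 0.09 (SE) and 0.05 ± 0.09. Among 19 other transferases, 10 had positive and 9 negative differences, with a median near 0, and none passed limma's test. At an unadjusted p under 0.05 the membrane forms Mgst2 (0.20 ± 0.06, SE, below the median probe set) and Mgst1 (-0.28 ± 0.10) had opposite signs. Gstm6 was at 0.38 ± 0.18 (SE), below the median probe set, and Gstm7 at -0.13 ± 0.08.

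The regulators of the NRF2 pathway had small negative differences, whose sign turned for Nfe2l2 and Nfe2l1 when single arrays were left out, with Nfe2l2 at -0.05 ± 0.08 (SE), its relative Nfe2l1 at -0.06 ± 0.08 and Keap1 at -0.06 ± 0.06. Nqo1, a quinone reductase and classical NRF2 target, measured 8.22, 7.86 and 7.72 on the MLC-SOCS-3 arrays and 7.97, 7.57 and 7.94 on the control arrays. The groups overlapped and both spread widely. Of 28 other genes of the pathway, 13 had positive and 15 negative differences, with a median of -0.02, and none passed limma's test. Tkt, the transketolase of the pentose phosphate pathway, measured 6.966, 6.9998 and 6.989 on the MLC-SOCS-3 arrays and 6.724, 6.725 and 6.761 on the control arrays. The groups did not overlap, with a difference of 0.25 ± 0.06 (SE; limma unadjusted p = 0.00493, adjusted p = 0.76). Abcc2, an export pump for conjugates, was at -0.33 ± 0.13 (SE), and Akr1b8, an aldose reductase, at 0.35 ± 0.17 (0.21 without control replicate 2), both below the median probe set. Abcc3, another export pump and also below the median probe set, was at -0.18 ± 0.09.

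Hmox1 encodes the inducible heme oxygenase, which breaks down heme and is made by many stressed cells and by macrophages. It had the largest difference of the set, 0.59 ± 0.25 (SE, 95% interval -0.019 to 1.203), a 1.51-fold higher intensity (limma unadjusted p = 0.0554, adjusted p = 0.83). It measured 7.48, 8.38 and 8.27 on the MLC-SOCS-3 arrays and 7.63, 7.40 and 7.32 on the control arrays. MLC-SOCS-3 replicate 1 lay among the controls, and the other MLC-SOCS-3 arrays stood above them. The difference was 0.88 without MLC-SOCS-3 replicate 1 and 0.42 without MLC-SOCS-3 replicate 2. Hmox2, the constitutive form, was at 0.03 ± 0.07 (SE).

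Srxn1 measured 8.79, 9.36 and 9.86 on the MLC-SOCS-3 arrays and 9.28, 9.05 and 8.94 on the control arrays, a difference of 0.24 ± 0.27 (SE). MLC-SOCS-3 replicate 1 was the lowest of the 6 arrays and MLC-SOCS-3 replicate 3 the highest. The difference was 0.52 without replicate 1 and -0.02 without replicate 3 of that group. Macrophage markers were set beside these genes. Of the 12 markers, 9 had positive differences, and the mean of the list, each gene relative to its own mean, was -0.12, 0.12 and 0.19 on the MLC-SOCS-3 arrays and -0.28, 0.11 and -0.01 on the control arrays. The list was thus lowest on control replicate 1 over the 6 arrays, and lowest on replicate 1 within the MLC-SOCS-3 group. Its members did not move as one. Itgam, an integrin subunit of myeloid cells and the only marker of the list at an unadjusted p under 0.05, read 5.53, 5.76 and 5.61 on the MLC-SOCS-3 arrays, against 4.88, 5.17 and 5.14 on the control arrays, with MLC-SOCS-3 replicate 1 above every control array (limma adjusted p = 0.728). Cd68, a lysosomal protein of macrophages, read 6.34, 7.21 and 7.49 on the MLC-SOCS-3 arrays, against 6.54, 6.49 and 6.47 on the control arrays, with MLC-SOCS-3 replicate 1 below every control array. Itgam and Cd68 had the largest differences of the 12 markers, 0.57 and 0.51. The other markers lay between -0.09 (C1qa) and 0.15 (C1qb). The 8 fibroblast markers gave -0.11, 0.22 and 0.14 on the MLC-SOCS-3 arrays and -0.12, -0.06 and -0.07 on the control arrays. All 8 had positive differences, with a median of 0.13, and none passed limma's test. The part of these cells in the values of Hmox1 and Srxn1 was not tested.

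**Figure D3:**
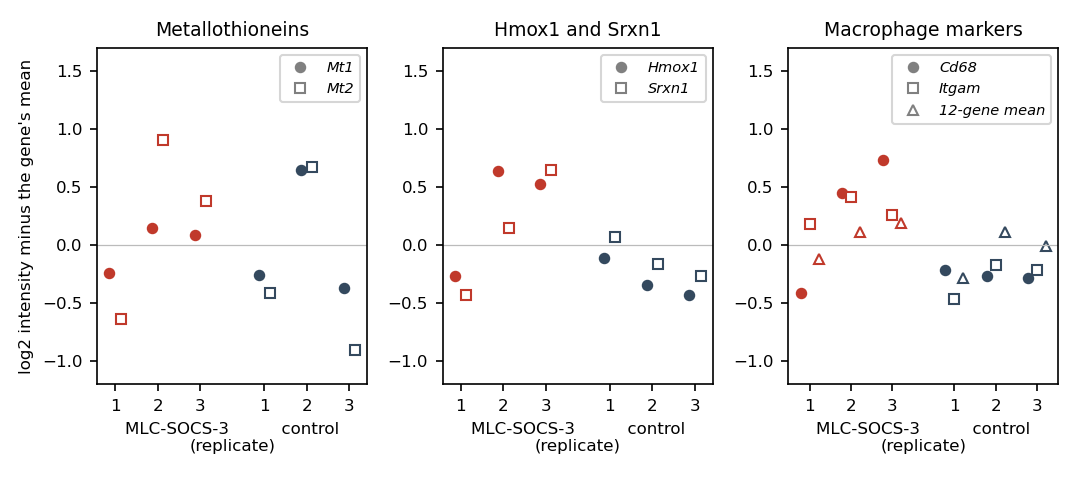
Log2 RMA intensity minus the mean over the 6 arrays, for Mt1 and Mt2, for Hmox1 and Srxn1, and for the macrophage markers Cd68 and Itgam with the mean of the 12 markers, with MLC-SOCS-3 arrays in red on the left and control arrays in dark blue on the right. Mt1 and Mt2 are highest on replicate 2 of either group. Hmox1, Srxn1 and Cd68 are low on MLC-SOCS-3 replicate 1, where Itgam is above every control array, and the 12-gene mean is lowest on control replicate 1. Cd68 and Itgam have the largest group differences of the 12 markers.

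Metallothioneins are small cysteine-rich proteins that bind zinc and copper, and their genes, Mt1 and Mt2, are neighbours on chromosome 8. Mt2 measured 8.49, 10.03 and 9.51 on the MLC-SOCS-3 arrays and 8.72, 9.80 and 8.22 on the control arrays. Mt1 measured 9.85, 10.24 and 10.18 on the MLC-SOCS-3 arrays and 9.83, 10.74 and 9.73 on the control arrays. Both genes were high on replicate 2 of either group and low on control replicates 1 and 3 and MLC-SOCS-3 replicate 1, so they separated arrays within a group more than they separated the groups. The differences were 0.43 ± 0.53 (SE) for Mt2 and -0.01 ± 0.28 for Mt1 (limma adjusted p = 0.91 and 0.997), and the interval for Mt2 reached from -0.87 to 1.73. Leaving out single arrays gave values between 0.08 and 0.87 for Mt2 and between -0.20 and 0.31 for Mt1.

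The spread of Mt2 within groups, an SD of 0.80, was exceeded by 0.1% of all genes. The SD of Mt1, at 0.42, was exceeded by 0.727% of them, that of Srxn1 (0.40) by 0.858% and that of Hmox1 (0.37) by 1.26%. These contrast with the set as a whole, where the median SD within groups was 0.09, against 0.11 for all genes. Of the 39 measured genes, 38 lay above the median probe set, against 11409 of all 19938 genes. The spread was not compared at like intensity. Msrb3 and Txn2, with SDs of 0.03 each, were among the steadiest. The remaining metallothionein genes, Mt3, known from brain, and Mt4, from squamous epithelia, lie next to Mt1 and Mt2 and were at 0.05 ± 0.11 (SE) and 0.07 ± 0.08.

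Of 23 genes of metallothionein regulation and of zinc and copper transport, 14 had positive and 9 negative differences, with a median of 0.01, and none passed limma's test, 0 also at an unadjusted p under 0.05. Slc39a14, a zinc importer, measured 7.161, 7.367 and 7.344 on the MLC-SOCS-3 arrays and 6.995, 7.231 and 6.945 on the control arrays, a difference of 0.23 ± 0.11 (SE). Within each group its highest array was replicate 2, as for Mt1 and Mt2, but MLC-SOCS-3 replicate 3 lay close to it. Genes of the list differed in this: Mt3 and Slc30a9 were also highest on replicate 2 of either group. Slc30a2, Mtf1 and Slc30a1, among others, were lowest on MLC-SOCS-3 replicate 2. The share of all genes highest on replicate 2 of either group is not given here. Slc30a2, a zinc exporter into vesicles, measured 7.25, 7.13 and 7.29 on the MLC-SOCS-3 arrays and 7.33, 7.85 and 7.44 on the control arrays, a difference of -0.32 ± 0.15 (SE) that was -0.16 without control replicate 2. Slc30a5 was at 0.12 ± 0.07 (SE) and Slc39a6, below the median probe set, at 0.12 ± 0.10.

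**Figure D4:**
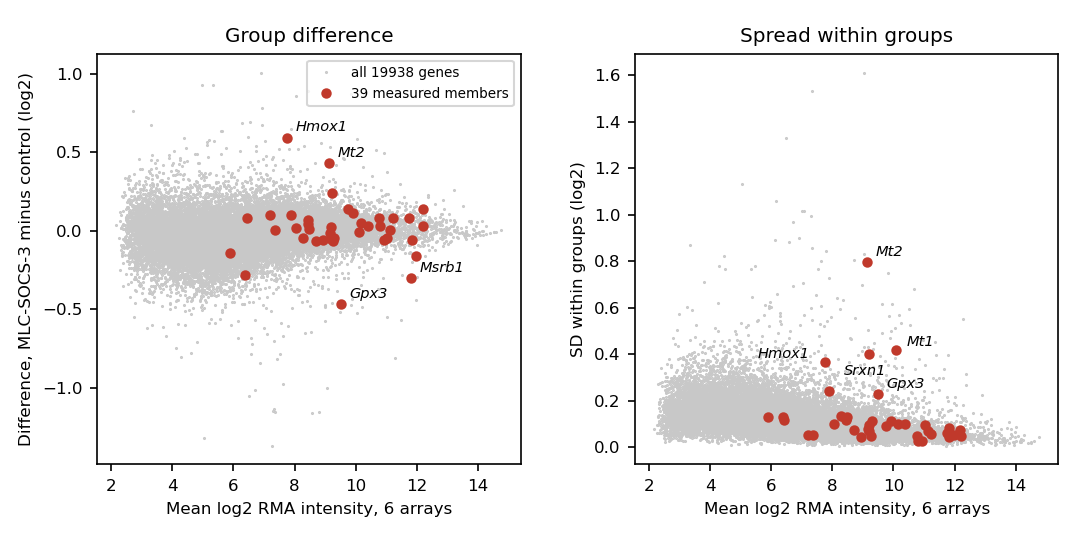
Left, difference in log2 RMA intensity, MLC-SOCS-3 minus control, against the mean intensity over the 6 arrays, and right, SD within groups against the same mean, for all 19938 genes (grey) and the 39 measured members (red). Mt2, Mt1, Srxn1 and Hmox1 stand above most genes in spread, and Hmox1, Mt2, Gpx3 and Msrb1 lie furthest from 0 in difference.

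Other genes of thiol chemistry and of oxidant production gave no called gene either. Among 24 peroxide and thiol redox genes, 16 had positive and 8 negative differences, with a median of 0.04. Nxn, a thioredoxin relative, measured 9.13, 8.98 and 8.99 on the MLC-SOCS-3 arrays and 9.25, 9.32 and 9.21 on the control arrays, without overlap, a difference of -0.23 ± 0.07 (SE; limma adjusted p = 0.81). Chac1, which degrades glutathione, measured 10.27, 9.54 and 9.49 on the MLC-SOCS-3 arrays and 10.14, 10.56 and 10.17 on the control arrays. MLC-SOCS-3 replicate 1 again lay with the controls, and the difference was -0.52 ± 0.24 (SE). Txnl1, a thioredoxin-like protein, was at 0.12 ± 0.06 (SE) and Txnip, which binds thioredoxin, at 0.20 ± 0.11. Among 16 oxidant-producing enzymes, 9 had positive and 7 negative differences, with none at an unadjusted p under 0.05. Ero1b, an oxidase of the endoplasmic reticulum, was at -0.17 ± 0.08 (SE), Nos2, the inducible nitric oxide synthase, at -0.29 ± 0.14, and the oxidase subunits Ncf4 and Cyba at -0.16 ± 0.12 and -0.10 ± 0.11. Ero1b, Nos2 and Ncf4 lay below the median probe set in their means over the 6 arrays, Nos2 not in the control arrays alone. Without MLC-SOCS-3 replicate 1, Ncf4 was at -0.07. Cyba turned to 0.0041 without MLC-SOCS-3 replicate 1. Over the 138 genes of these 7 lists, 74 differences were positive and 64 negative, 17 had groups that did not overlap (12.3%, against 12.3% of all genes), and 5 were at an unadjusted p under 0.05 (3.62%, against 4.86% of all genes).

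**Figure D5:**
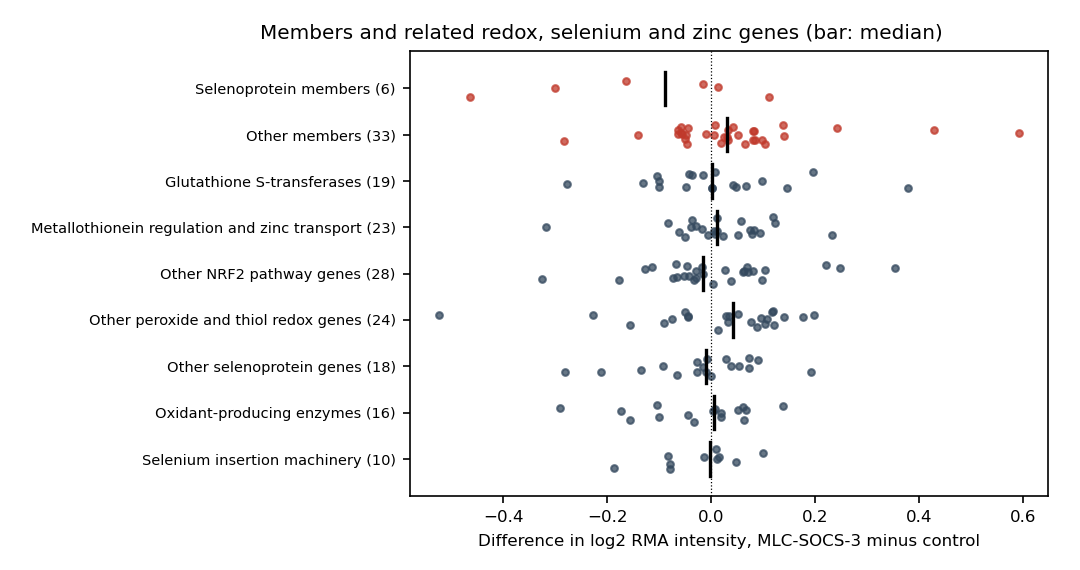
Difference in log2 RMA intensity, MLC-SOCS-3 minus control, for the 6 selenoprotein members and the 33 other members (red) and for the genes of 7 related lists (dark blue), with the number of genes in parentheses and the median as a bar. The medians of the related lists lie between -0.02 and 0.04.

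Muscle markers were measured beside the set as a check of the tissue. The fast fibre genes Myh4 and Tnni2 read above 13 on all 6 arrays. All 8 slow fibre markers had negative differences, with a median of -0.14, and the mean of the list was -0.13, -0.01 and -0.16 on the MLC-SOCS-3 arrays and 0.19, -0.06 and 0.16 on the control arrays. The 9 fast fibre markers had 2 positive and 7 negative differences, with a median of -0.02. Positive differences were found for 6 of 7 measured adipocyte markers, 3 of 8 endothelial markers and 1 of 3 erythroid markers. The adipocyte marker Adipoq was at 0.64 ± 0.10 (SE; limma unadjusted p = 0.000603, adjusted p = 0.691). Its groups did not overlap, and it lay below the median probe set. The negative adipocyte marker was Cidea, at -0.25 ± 0.15. The part of fibre type and of these cell types in the values of the glutathione peroxidases and Msrb1 was not tested.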

How the data were processed

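The submitters' processing notes name RMA and Affymetrix Expression Console, and the deposited values are log2 intensities. Software versions and the genome build: not given in the sources used here. As a method, RMA corrects background, brings arrays to a common distribution and summarises each probe set, which compresses folds of dim and very bright genes. All 6 value columns were used as deposited, from 1.41 to 15.1. There are no detection calls or counts, so the number of arrays limits the precision. No array repeated another: any pair had 36 identical values or fewer among 35557.

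Of the probe sets, 21789 have 1 gene symbol in the platform annotation, 1621 have several and 12147 are unlisted. Symbols were updated through Entrez identifiers to the GRCm38.p6 gene table, giving 19938 genes.

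Groups were compared with limma 3.58.1 in R 4.3.3 (lmFit, eBayes, two-sided), with Benjamini-Hochberg adjustment over all probe sets and a threshold of 0.05. The fit was tested on simulated data. Values on every array are given for the 12 members with the smallest unadjusted p, the metallothioneins and the 6 selenoproteins; up to 4 genes of each related list, by smallest p, are named. Genes outside that rule (Srxn1, Nqo1, Msrb3, Cd68, Itgam, C1qa, C1qb, Adipoq, Cidea, Mt3, Mt4, Myh4, Tnni2 and the genes given in a clause) were chosen after their values were seen. The members and lists were chosen with earlier results of these data known. No gene set test was made.

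Alternatives were other scalings, moderation, probe set selections, array weights, the replicate number as a block, and leaving out each array.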

Additional observations from a re-analysis of the deposited data

How the results depend on the processing

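Across 16 alternative fits and the other probe sets of Gpx4 and Prdx2, the latter chosen after seeing the data, 673 of 683 values for the 45 genes under the naming rule kept their sign and their side of the threshold. Msrb1 passed on listed probe sets with trend and robust moderation (-0.30, adjusted p = 0.0433), where 11 probe sets were called. Testing a single probe set for each gene called 1 probe set, and leaving out single arrays called 0 to 1. Of the members, 1 passed in the first of these settings and 0 with single arrays left out. The count of members at an unadjusted p under 0.05, also recomputed after seeing the data, was 3 to 6 across the other settings and 1 to 4 with single arrays left out. The shares of all genes at that p in these alternative settings are not given here. Members without overlap were 11 with centred arrays (12.3% of all genes) and 9 to 12 with single arrays left out (23.1% to 30.8% of members, 20.6% to 25.1% of all genes), where fewer arrays make overlap less likely. Signs turned for values near 0. With centred arrays Mt1 was at 0.0093 and Gpx1 at 0.0043, and with quantile normalization Txnrd2 was at -0.0018. The dimmer Prdx2 probe set was at -0.0129. Leaving out single arrays gave -0.20 to 0.31 for Mt1, -0.0683 to 0.0423 for Gpx1, -0.0946 to 0.0735 for Txnrd2 and -0.16 to 0.0041 for Cyba. The cause was not tested. The titles do not say whether the replicate numbers pair the samples. Deviations of same-numbered arrays from their group means correlated at -0.026, -0.018 and -0.043. Those of differently numbered arrays correlated at -0.038 to 0.064. No shared shift over the whole array was seen, which cannot show whether the samples were paired. With the replicate number as a block, 0 probe sets and 0 members passed, and Msrb1, Gpx3 and Gpx7 were at an unadjusted p under 0.05, 3 in all.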
